A study of Mus musculus with 12 samples.

Results

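Somites, the segments of paraxial mesoderm that flank the neural tube, are patterned by a small set of transcription factors, and 8 of them were followed here in mouse gastruloids embedded in hydrogels. The 8 genes were taken by name: *Tcf15*, *Meox1*, *Meox2*, *Uncx*, *Foxc1*, *Foxc2*, *Pax1* and *Pax9*. Each was present as a single row among the 55141 genes of the count table, and all 8 passed the filter on low counts in every comparison. Gastruloids are aggregates of mouse embryonic stem cells (background 129/SVEV) that form an anteroposterior axis in culture. All 12 libraries came from aggregates seeded with 300 cells and given 3 µM CHIR 99021, a Wnt agonist, for 24 h from 48 h after seeding. Dextran hydrogel was cast around the gastruloids 72 h or 96 h after seeding, at a concentration of 1.0 mM in one pair of groups and 1.5 mM in the other, and all were harvested at 120 h. The 4 groups held 3 libraries each, every library being a pool of about 30 gastruloids, so gastruloids spent 48 h in the gel after early embedding (at 72 h) and 24 h after late embedding (at 96 h).

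Somites form when presomitic mesoderm buds off in sequence, each segment first as an epithelial ball. The basic helix-loop-helix factor *Tcf15* (paraxis) is needed for that epithelial state, and the homeobox genes *Meox1* and *Meox2* act together in early somite development, *Meox1* over the whole young somite and *Meox2* later, also in the migrating precursors of limb muscle. *Uncx* marks and maintains the posterior part of each segment, opposite *Tbx18* in the anterior part. The forkhead genes *Foxc1* and *Foxc2* act redundantly in presomitic and somitic mesoderm, and are also used in cardiovascular, kidney and head mesenchyme. Sonic hedgehog from notochord and floor plate turns the ventral somite into sclerotome, the source of vertebrae and ribs, where *Pax1* and *Pax9* are switched on; both are also expressed in pharyngeal pouch endoderm.

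By the coordinates of the deposited tables (mm10), *Tcf15* (ENSMUSG00000068079) lies on chromosome 2 from 152143561 to 152149097 and *Pax1* (ENSMUSG00000037034) on the same chromosome from 147361925 to 147375053. *Meox1* (ENSMUSG00000001493) lies on the minus strand of chromosome 11 from 101877510 to 101894374, while the other 7 are on plus strands. *Meox2* (ENSMUSG00000036144) spans chromosome 12 from 37108540 to 37179534, and *Pax9* (ENSMUSG00000001497) the same chromosome from 56691767 to 56712822. *Uncx* (ENSMUSG00000029546) is on chromosome 5 from 139543494 to 139548179, *Foxc1* (ENSMUSG00000050295) on chromosome 13 from 31806633 to 31812476 and *Foxc2* (ENSMUSG00000046714) on chromosome 8 from 121116171 to 121118895. The forkhead genes are single-exon genes in the GENCODE annotation. *Pax1* shares 183 exonic bases with the antisense transcript *AI646519*, which had a mean of 5 counts against 110.8 for *Pax1*, and *Pax9* shares 189 with *Slc25a21*, at 3.42 counts against 195.7. The strand setting of the counts is not given in the sources used here, so reads in those shared bases cannot be assigned.

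The promoters of *Meox2* and *Uncx* are shown because of their place among the 8 genes. *Meox2* had the largest difference between embedding times, and *Uncx* was the member whose libraries separated by gel, after embedding at 72 h and not at 96 h. RefSeq tables of the GRCm38.p6 build held a promoter for 5 of the 8 genes (*Meox2*, *Uncx*, *Foxc1*, *Pax1* and *Pax9*), each running from 250 bases before to 50 bases after the start site. *Meox2* corresponds to chr12:37108290-37108589 and *Uncx* to chr5:139543648-139543947, both on the plus strand and printed 5′ to 3′. Capitals mark matches on either strand, none of which overlapped in these windows. The motifs searched were the core promoter element TATAAA, the homeodomain core TAATTA, the forkhead core TGTTTA and the binding site of basic helix-loop-helix factors called the E-box, which reads CANNTG.
Meox2: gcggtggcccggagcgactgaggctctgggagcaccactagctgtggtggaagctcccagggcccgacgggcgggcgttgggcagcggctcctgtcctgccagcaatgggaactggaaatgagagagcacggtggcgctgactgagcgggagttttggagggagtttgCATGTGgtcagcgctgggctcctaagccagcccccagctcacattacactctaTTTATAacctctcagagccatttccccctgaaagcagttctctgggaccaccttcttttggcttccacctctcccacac
Uncx: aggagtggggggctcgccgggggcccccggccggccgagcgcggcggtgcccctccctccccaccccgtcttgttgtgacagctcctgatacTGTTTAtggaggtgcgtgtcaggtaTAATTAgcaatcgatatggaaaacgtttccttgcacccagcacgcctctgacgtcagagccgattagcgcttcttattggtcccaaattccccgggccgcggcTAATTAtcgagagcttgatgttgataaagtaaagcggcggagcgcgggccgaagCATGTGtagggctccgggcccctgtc
The *Meox2* window held 1 TATAAA, on the minus strand, and 1 E-box, and the *Uncx* window held 2 homeodomain cores, 1 forkhead core and 1 E-box. Over all 32851 promoters in the table, 13.6% held TATAAA, 5.29% TAATTA, 13.4% TGTTTA and 72.3% CANNTG. CpG dinucleotides numbered 12 in the *Meox2* window and 26 in that of *Uncx*, against a median of 7 over all promoters. The RefSeq start of *Uncx* lies 404 bases inside the gene as the deposited tables draw it, and that of *Meox2* at the same base. These matches are letters in a window, and nothing in the RNA measurements bears on whether a factor binds them.

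Total counts ran from 23011791 to 27609422 per library, and mitochondrial genes, left out of all tests, took 1.68% to 3.02% of them. The counts behind single values ranged from 21 reads for *Meox2* in a library of the early group to 10940 for *Meox1* in one of the late group, so counting error was widest for *Meox2*, *Pax1* and *Pax9* after early embedding. Levels of a gene are given as CPM, read counts scaled to a common library total after TMM normalization, and levels of different genes are compared as FPKM, which accounts for length. Differences were tested on the counts with the quasi-likelihood test of edgeR, and p-values were adjusted over all genes tested (Benjamini-Hochberg). A gene was past the test at an adjusted p below 0.05 and DE when its absolute log2 fold change was also above 1. The study's methods describe replicates as biological, and the labels do not add which culture or day each came from. In bulk RNA, fewer somite-type cells and less RNA per cell cannot be told apart.

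Embedding at 72 h instead of 96 h was accompanied by lower levels of the somite factors at 120 h. In 1.0 mM gels 7 of the 8 genes were past the test and lower after early embedding, a direction and threshold that 3.27% of the 15763 genes tested met, and 5 of the 8 were DE in that direction, against 1.69% of all genes. In 1.5 mM gels 7 of 8 were again past the test and lower, against 8.98% of 15683 genes, and 3 were DE, against 1.57%. The count of 7 in 1.5 mM gels fell to 4 without replicate 2 or without replicate 3 of the late group, and to 2 with limma on FPKM values. *Pax9* was the exception in 1.0 mM gels and *Foxc2* in 1.5 mM gels. The median log2 fold change of the members, 72 h over 96 h, was -1.46 in 1.0 mM and -0.72 in 1.5 mM gels, beside -0.01 over all genes tested in either gel. With gel concentration as a covariate and all 12 libraries in the fit, 8 of 8 were past the test and lower, against 14.8% of 16388 genes, and 5 were DE, against 2.29%. *Pax9* had an adjusted p of 0.0233 in that fit and lost the call under 5 of 23 alternatives. It rose to between 0.0511 and 0.0577 without replicate 1 or 3 of the late group, or replicate 1 of the early group, in 1.0 mM gels, to 0.0733 without both replicates numbered 1 of the early groups and to 0.101 without those of the late groups. Comparisons of embedding time are each within a gel, and the comparisons between gels use the same libraries again.

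**Figure D1:**
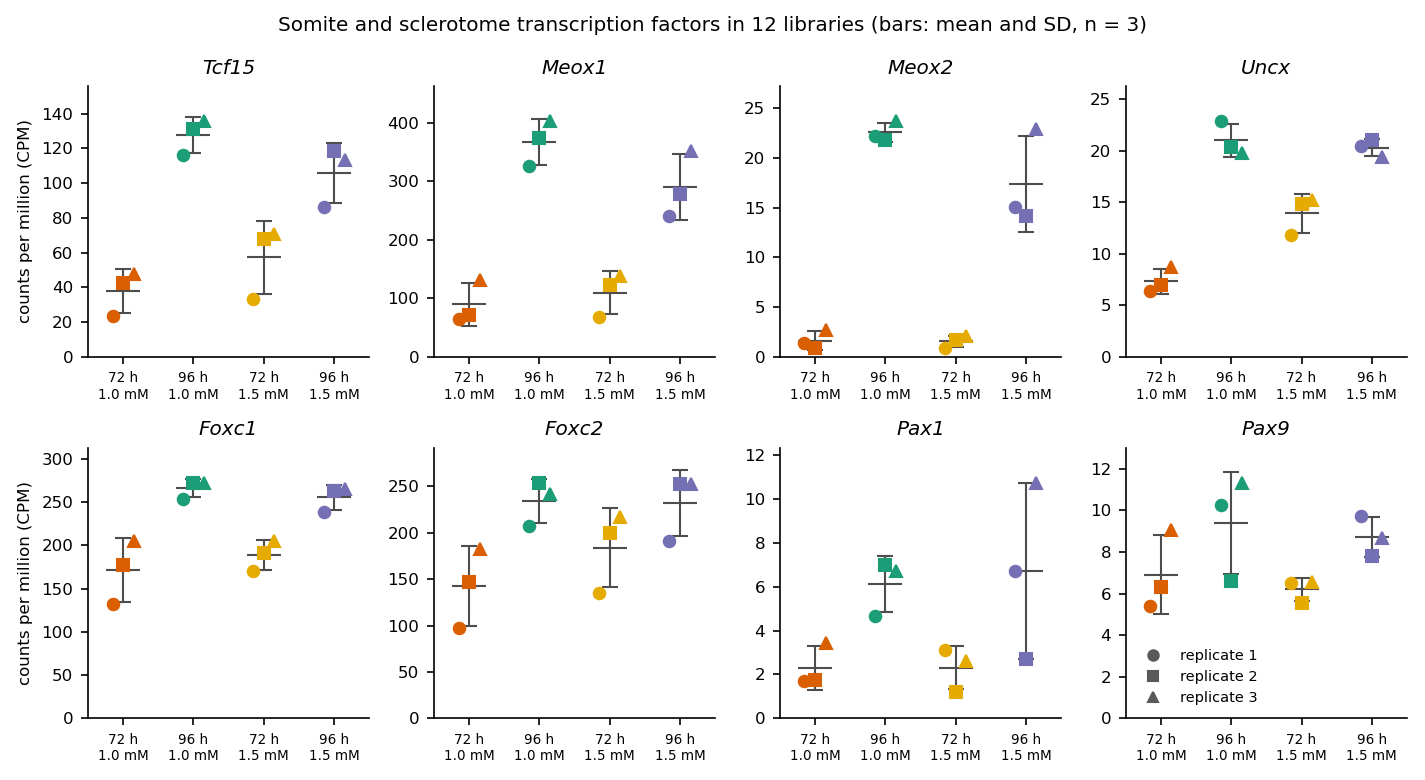
Expression of the 8 transcription factors in CPM (vertical axes, each starting at 0) in the 4 groups of embedding time and gel concentration (horizontal axes). Points are libraries, their shapes the replicate numbers, and bars the mean and SD (n = 3). All 6 libraries of the early groups lie below all 6 of the late groups for *Tcf15*, *Meox1*, *Meox2*, *Uncx* and *Foxc1*.

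*Tcf15*, the factor of the epithelial somite, was at 23.5, 42.7 and 47.7 CPM in the 3 libraries of the early group in 1.0 mM gels and at 116, 131 and 136 CPM in those of the late group. In 1.5 mM gels its values were 33.1, 68.0 and 70.6 CPM after early embedding and 86.3, 118 and 113 CPM at 96 h. Early and late libraries kept apart in both gels, although replicate 1 stood below the other replicates in all 4 groups. The log2 fold change was -1.74 (SE 0.199, adjusted p = 4.67e-04) in 1.0 mM gels and -0.89 (SE 0.242, adjusted p = 0.0318) in 1.5 mM gels. In the 1.5 mM gels the call was lost with DESeq2 (adjusted p = 0.0636), with FPKM values (0.0919) and without replicate 2 (0.105) or 3 (0.101) of the late group.

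*Meox1*, the early pan-somite homeobox gene, was the most abundant member per length (FPKM) after late embedding. It was at 65.0, 71.7 and 131 CPM after early embedding and at 326, 374 and 402 CPM after late embedding in 1.0 mM gels. *Meox1* in the 1.5 mM libraries was at 67.5, 123 and 137 CPM at 72 h and 241, 278 and 352 CPM at 96 h. The highest 72 h library therefore had 137 CPM and the lowest 96 h library 241 CPM. Mean *Meox1* after early embedding was 24.3% of its 96 h mean in 1.0 mM gels (fitted log2 difference -2.03, SE 0.220, adjusted p = 3.01e-04) and 37.6% in 1.5 mM gels (-1.42, SE 0.230, adjusted p = 0.00531). Both calls held under all 16 alternative fits of each comparison.

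*Meox2* had the largest difference among the members. Its levels after early embedding were 1.36, 0.86 and 2.66 CPM in 1.0 mM gels and 0.93, 1.65 and 2.07 CPM in 1.5 mM gels. After late embedding they were 22.2, 21.8 and 23.7 CPM in 1.0 mM gels and 15.0, 14.1 and 22.9 CPM in 1.5 mM gels. No 72 h library came near a 96 h library, and the 72 h mean was 7.21% of the 96 h mean in 1.0 mM gels and 8.92% in 1.5 mM gels. The log2 fold changes were -3.79 (SE 0.277, adjusted p = 6.73e-05) and -3.48 (SE 0.281, adjusted p = 5.46e-04), which put *Meox2* at rank 16 of 15763 genes and at rank 8 of 15683 by absolute size. Both calls held under all 16 alternative fits in each gel.

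*Uncx*, the posterior-segment gene, was at 6.36, 6.94 and 8.70 CPM in 1.0 mM gels after early embedding and at 22.8, 20.4 and 19.7 CPM after late embedding. *Uncx* in the 1.5 mM libraries was at 11.8, 14.8 and 15.2 CPM at 72 h and at 20.4, 21.0 and 19.4 CPM at 96 h. The 6 libraries of the late groups were close to one another in both gels, while the 72 h libraries of the 2 gels formed separate ranges. The log2 fold change with embedding time was -1.51 (SE 0.143, adjusted p = 1.52e-04) in 1.0 mM gels and -0.55 (SE 0.114, adjusted p = 0.0126) in 1.5 mM gels. The latter call was lost with FPKM values (adjusted p = 0.0634) and without replicate 2 of the late group (0.0538).

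The forkhead genes changed less. *Foxc1* was at 132, 178 and 206 CPM after early embedding in 1.0 mM gels and at 254, 272 and 273 CPM at 96 h. In 1.5 mM gels it had 170, 191 and 205 CPM at 72 h and 239, 263 and 265 CPM at 96 h. Its early and late libraries kept apart in both gels, with log2 fold changes of -0.63 (SE 0.133, adjusted p = 0.0133) and -0.44 (SE 0.0768, adjusted p = 0.00679). The adjusted p was 0.0541 in 1.0 mM gels without replicate 3 of the late group, and 0.0585 in 1.5 mM gels with FPKM values.

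*Foxc2* was at 97.8, 147 and 183 CPM at 72 h and 207, 254 and 242 CPM at 96 h in 1.0 mM gels. Its 1.5 mM libraries had 136, 199 and 217 CPM at 72 h and 191, 253 and 253 CPM at 96 h. The 1.0 mM libraries separated by embedding time, and in 1.5 mM gels 2 libraries of the early group lay above replicate 1 of the late group. The log2 fold change was -0.71 (SE 0.178, adjusted p = 0.0292) in 1.0 mM gels and -0.34 (95% interval -0.71 to 0.03, adjusted p = 0.170) in 1.5 mM gels. The 1.0 mM call was lost with DESeq2 (adjusted p = 0.0607), with FPKM values (0.0802) and without replicate 2 (0.102) or 3 (0.0976) of the late group. In 1.5 mM gels *Foxc2* was past the test without the filter on low counts (adjusted p = 0.0101).

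The sclerotome genes were read at low counts in every group. *Pax1* was at 1.70, 1.76 and 3.45 CPM at 72 h and 4.68, 6.98 and 6.73 CPM at 96 h in 1.0 mM gels. *Pax1* in the 1.5 mM libraries was at 3.11, 1.20 and 2.64 CPM at 72 h and at 6.71, 2.69 and 10.7 CPM at 96 h, so replicate 2 of the late group lay within the range of the 72 h libraries. The log2 fold change was -1.41 (SE 0.285, adjusted p = 0.0106) in 1.0 mM gels and -1.54 (SE 0.475, adjusted p = 0.0497) in 1.5 mM gels. The latter stood at the threshold, and 10 of its 16 alternatives put it above, with an adjusted p of up to 0.185 and a log2 fold change of -1.02 without replicate 3 of the late group. In 1.0 mM gels the call was lost when all 12 libraries were fitted together (adjusted p = 0.0510).

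*Pax9* was at 5.38, 6.33 and 9.03 CPM after early embedding and at 10.2, 6.62 and 11.3 CPM after late embedding in 1.0 mM gels. Its values were 6.49, 5.57 and 6.57 CPM and 9.71, 7.79 and 8.68 CPM in 1.5 mM gels, where the embedding times did not overlap. The log2 fold change was -0.44 (95% interval -0.95 to 0.07, adjusted p = 0.299) in 1.0 mM gels and -0.50 (SE 0.143, adjusted p = 0.0400) in 1.5 mM gels. The call in 1.5 mM gels was lost under 7 of 16 alternatives, among them the fit of all 12 libraries (adjusted p = 0.122), FPKM values (0.124) and the omission of replicate 2 (0.129) or 3 (0.0886) of the early group. It was lost also without replicate 1 (0.103), 2 (0.0644) or 3 (0.104) of the late group.

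Early and late libraries had separate ranges for 7 of 8 members in 1.0 mM gels, where 13.8% of all genes tested were lower without overlap, and for 6 of 8 in 1.5 mM gels, where 20% were. The plot of fitted differences with their intervals sets both gels side by side.

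**Figure D2:**
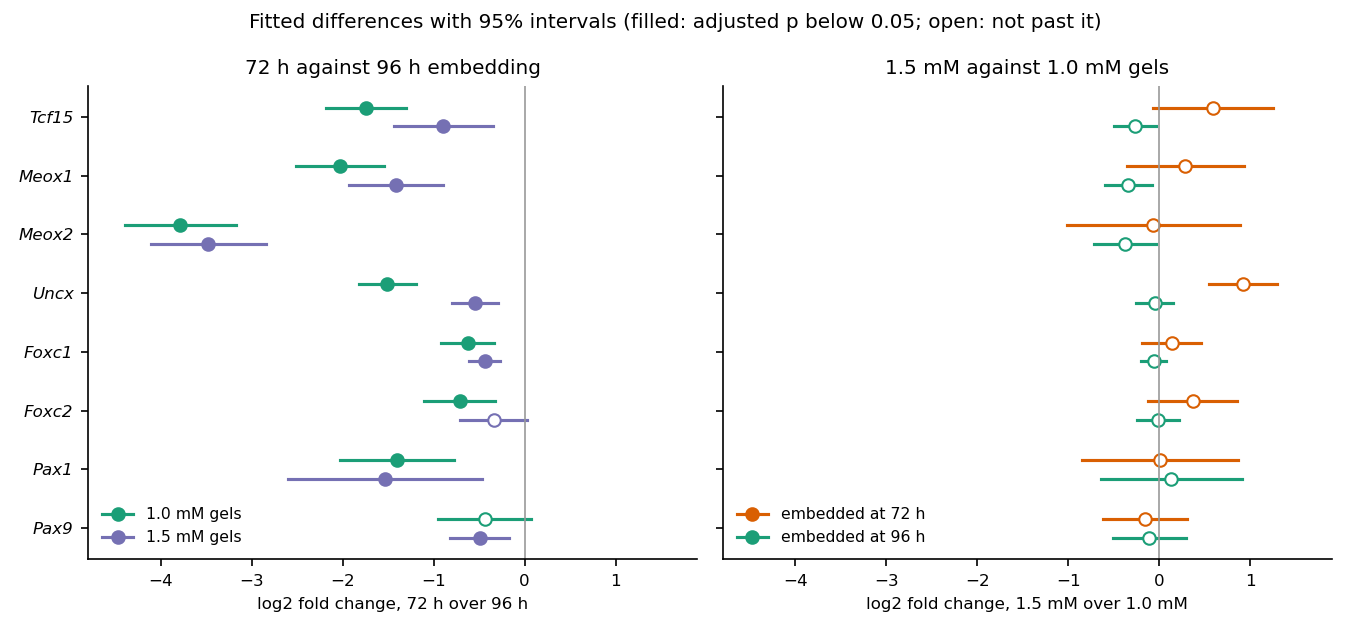
Fitted log2 fold changes (horizontal axes) with 95% intervals (lines) of the 8 transcription factors, for early over late embedding (left) and for 1.5 mM over 1.0 mM gels (right). Filled points are past the test (adjusted p below 0.05) and open points are not; on the left all points lie below 0 and *Meox2* lies lowest (-3.79 and -3.48), and on the right no point is past the test.

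Levels per length put the members in 2 tiers. In every group *Foxc2*, *Meox1*, *Tcf15* and *Foxc1* had a mean of over 20 FPKM, and *Uncx*, *Meox2*, *Pax1* and *Pax9* had less than 8 FPKM. The order within the upper tier differed between embedding times. After late embedding *Meox1* led, at 128 ± 12.4 FPKM (SD, n = 3) in 1.0 mM and 97.9 ± 21.9 in 1.5 mM gels, followed by *Tcf15* (100.5 ± 6.84 and 80.7 ± 11.9) and *Foxc2* (67.4 ± 6.56 and 64.6 ± 9.75). The ranges of these 3 genes did not overlap in 1.0 mM gels, and in 1.5 mM gels neighbours in the order overlapped. After early embedding *Foxc2* came first, at 40.5 ± 11.9 FPKM in 1.0 mM and 51.9 ± 14.5 in 1.5 mM gels, but its range overlapped those of the next members. *Meox1* was then at 30.8 ± 12.7 and 37.4 ± 14.1 FPKM, and *Tcf15* at 29.6 ± 9.64 and 44.5 ± 18.1. *Foxc1* was the fourth in all 4 groups, between 22.8 ± 4.75 and 35.7 ± 1.11 FPKM.

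In the lower tier *Meox2* had a mean of 0.551 ± 0.299 FPKM in 1.0 mM and 0.545 ± 0.214 in 1.5 mM gels after early embedding, where its range overlapped that of *Pax1* in both gels. At 96 h it was at 7.83 ± 0.366 and 5.79 ± 1.85 FPKM, above *Uncx* in 1.0 mM gels and overlapping it in 1.5 mM gels. *Uncx* was at 2.22 ± 0.396 and 4.14 ± 0.757 FPKM at 72 h and at 6.33 ± 0.576 and 5.97 ± 0.152 at 96 h. *Pax9* lay between 1.10 ± 0.0916 and 1.70 ± 0.415 FPKM, and *Pax1* between 0.677 ± 0.271 and 2.02 ± 1.23. *Pax1* and *Pax9* could not be put in order in either 96 h group or after early embedding in 1.0 mM gels, since their ranges overlapped.

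Ratios within a library show whether related genes changed by the same amount, and 4 pairs were examined: both *Meox* genes, both *Foxc* genes, *Pax1* with *Pax9*, and *Uncx* with its anterior counterpart *Tbx18*. These pairs were chosen after the values were seen, with *Meox2* already known as the largest change, so their ratios are given as a description with no test. The ratio of *Meox2* to *Meox1* per length was 0.0213, 0.0120 and 0.0193 after early embedding in 1.0 mM gels and 0.0151, 0.0132 and 0.0155 in 1.5 mM gels. At 96 h it was 0.0673, 0.0577 and 0.0593 in 1.0 mM and 0.0610, 0.0502 and 0.0643 in 1.5 mM gels, above every 72 h library. The log2 ratio of counts was lower by 1.94 after early embedding (-5.98 ± 0.324 against -4.05 ± 0.149, SD over 6 libraries each), and with libraries left out or FPKM values the difference lay between -2.01 and -1.67.

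*Foxc2* to *Foxc1*, by contrast, had mean ratios per length of 1.76 ± 0.159 and 2.07 ± 0.315 at 72 h (1.0 mM, then 1.5 mM gels, SD, n = 3) and 1.88 ± 0.128 and 1.94 ± 0.197 at 96 h. Its log2 ratio of counts differed by -0.0087 between embedding times (-0.178 ± 0.209 against -0.169 ± 0.115 over 6 libraries each), a difference smaller than the spread within either time. *Pax1* to *Pax9* was lower after early embedding, by 0.98 on the log2 scale (-1.57 ± 0.408 against -0.592 ± 0.699), and libraries of the 2 times overlapped. *Uncx* to *Tbx18* differed by 0.43 between embedding times (0.0771 ± 0.516 against -0.354 ± 0.290) and by 0.44 between gels (0.0826 ± 0.522 in 1.5 mM against -0.359 ± 0.270 in 1.0 mM gels), with overlapping libraries in both comparisons.

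**Figure D3:**
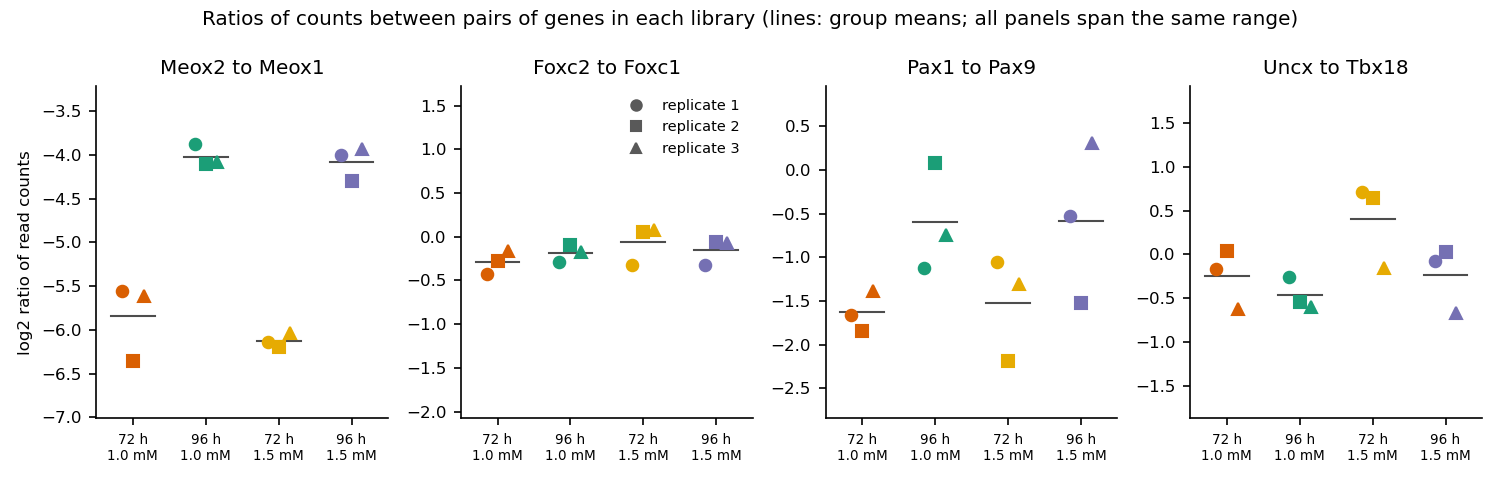
Log2 ratios of read counts (vertical axes, all spanning the same range) of 4 pairs of genes in each library, by group; points are libraries, shapes replicate numbers and lines group means. *Meox2* to *Meox1* averages -5.98 after early embedding and -4.05 at 96 h, with no overlap, and *Foxc2* to *Foxc1* averages -0.178 and -0.169.

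Between gels of different concentration edgeR on the filtered counts, without a replicate block, called no member, and some alternative fits called *Uncx*, *Tcf15*, *Foxc2* or *Meox1*. By edgeR 0 of the 8 genes were past the test between gels at either embedding time, as were 0% of all genes. DESeq2 called *Uncx* at 72 h and no member at 96 h. The share of all genes called by DESeq2 or by the other alternative fits is not given here. At an unadjusted p below 0.05 there was 1 member at 72 h (*Uncx*), against 6.9% of 15563 genes, and there were 3 at 96 h (*Meox1*, *Meox2* and *Tcf15*), against 9.95% of 15861 genes. Across both embedding times no member was past the test, against 0.0305% of all genes.

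After early embedding the *Uncx* levels of the 1.5 mM libraries (11.8, 14.8 and 15.2 CPM) all lay above those of the 1.0 mM libraries (6.36, 6.94 and 8.70 CPM), and 5.97% of genes were higher in 1.5 mM gels without overlap. Its log2 fold change was 0.92 (SE 0.168), with an unadjusted p of 2.44e-04, the fifth smallest of 15563 genes, and an adjusted p of 0.698. DESeq2 (adjusted p = 0.00355), edgeR without the filter on low counts (2.63e-05) and the fit with replicate number as a block (0.0220) called it, and the other 13 alternatives did not, with adjusted p-values from 0.0718 to 1.00. At 96 h *Uncx* differed by -0.05 between gels (95% interval -0.26 to 0.15).

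*Tcf15* was 0.59 higher on the log2 scale in 1.5 mM gels at 72 h (95% interval -0.06 to 1.25, adjusted p = 0.704) and 0.27 lower at 96 h (95% interval -0.49 to -0.04, adjusted p = 0.448). It was past the test with the replicate block (adjusted p = 0.0224 at 72 h and 0.0231 at 96 h) and without the filter on low counts (2.91e-05 and 0.0226). *Meox1* gave 0.29 (95% interval -0.36 to 0.93) at 72 h and -0.34 (95% interval -0.60 to -0.08, adjusted p = 0.392) at 96 h, where the replicate block (adjusted p = 0.00355) and the fit without the filter (2.65e-04) called it. *Meox2* gave -0.06 (95% interval -1.02 to 0.89) and -0.38 (95% interval -0.72 to -0.04, adjusted p = 0.452). *Foxc2* differed by 0.37 (95% interval -0.12 to 0.85) at 72 h and was called there by 1 of its 16 alternatives, the fit without the filter (adjusted p = 0.0176). The other estimates between gels were within 0.16 of 0 at both times, with intervals as wide as -0.85 to 0.86 for *Pax1* at 72 h. At these counts a difference for *Pax1* or *Meox2* nearly as large as the 0.92 of *Uncx* lay within the interval.

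An interaction term in a fit of the 12 libraries asked whether the effect of embedding time differed between gels. None of the 8 members was past the test by edgeR, as was no gene at all, and 2 members (*Uncx* and *Tcf15*) had an unadjusted p below 0.05, against 4.32% of 16388 genes. *Uncx* had the smallest p of all 16388 genes (9.80e-05, adjusted p = 0.953), with an interaction of 0.98 on the log2 scale (SE 0.184), a smaller fall with early embedding in 1.5 mM gels. DESeq2 (adjusted p = 0.0104), edgeR without the filter (2.69e-04) and edgeR without both replicates numbered 1 of the early group (0.0409) called it, and the adjusted p over its 23 alternatives ran up to 1.00. The interactions of *Tcf15* (0.86, 95% interval 0.09 to 1.63) and *Meox1* (0.63, 95% interval -0.15 to 1.40) had the same sign, and neither was past the test (adjusted p = 0.953 for both). For 6 of the 8 members the estimate was positive, with a median of 0.35, beside 0.01 over all genes.

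Replicates of a group differed in step across most members. Correlations between members were computed over the 12 libraries after the mean log2 CPM of each group was subtracted, and serve as a description only, since the libraries share their depth and composition. *Tcf15* and *Foxc2* (r = 0.96), *Foxc1* and *Foxc2* (0.95), and *Meox1* and *Meox2* (0.89) rose and fell together from replicate to replicate. *Tcf15* and *Uncx* gave 0.74. Both sclerotome genes were less in step: *Pax1* had r between -0.09 (*Uncx*) and 0.42 (*Pax9*), on counts as low as 27 reads in a library, and *Pax9* between 0.19 (*Tcf15*) and 0.43 (*Foxc1*).

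Transcripts of another lineage ran opposite to the members. The list of 11 cardiac and lateral mesoderm genes (*Nkx2-5*, *Tbx5*, *Tbx20*, *Gata4*, *Hand1*, *Hand2*, *Isl1*, *Mef2c*, *Tnnt2*, *Myl7* and *Foxf1*) had 11 of 11 genes past the test and higher after early embedding in 1.0 mM gels, and 5 of 11 in 1.5 mM gels, against 5.97% and 10.4% of all genes tested. Its summed level was 577 to 1081 CPM at 72 h and 90.2 to 246 CPM at 96 h in 1.0 mM gels, and 471 to 890 CPM against 238 to 395 CPM in 1.5 mM gels, and every one of the 11 had reads in all 12 libraries. *Hand2*, a bHLH factor of heart and lateral mesoderm, was at 219, 132 and 134 CPM at 72 h and 54.6, 44.0 and 15.0 CPM at 96 h in 1.0 mM gels. In both gels the library with the highest cardiac sum of the early group was replicate 1 (1081 and 890 CPM), and replicate 1 also had the lowest *Tcf15*, *Meox1*, *Foxc1*, *Foxc2* and *Uncx* of its group. The other members did not follow in both gels: *Meox2* was lowest in replicate 2 in 1.0 mM gels (0.86 CPM), and in 1.5 mM gels *Pax9* was lowest in replicate 2 (5.57 CPM) and *Pax1* highest in replicate 1 (3.11 CPM). The fit across both gels without replicate 1 of both early groups called 7 of the 8 members lower after early embedding, all but *Pax9* (adjusted p = 0.0733). Cardiac sums of the early libraries left in that fit were 577 and 642 CPM in 1.0 mM gels and 471 and 486 CPM in 1.5 mM gels. Each was above every late library of its gel. The part of the cardiac transcripts in the levels of the members was not tested.

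**Figure D4:**
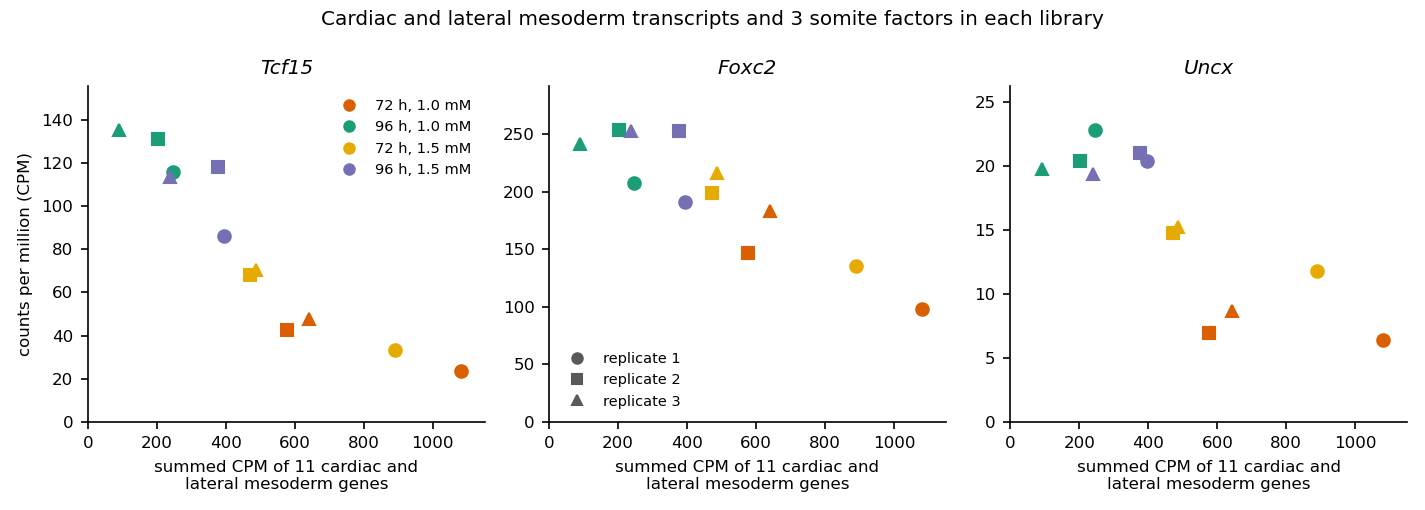
CPM of *Tcf15*, *Foxc2* and *Uncx* (vertical axes, from 0) against the summed CPM of 11 cardiac and lateral mesoderm genes (horizontal axes, from 0) in each library; colours are groups and shapes replicate numbers. The libraries with 890 and 1081 CPM of cardiac transcripts, both replicate 1 of the early group, have the lowest *Tcf15* (33.1 and 23.5 CPM) and *Foxc2* (136 and 97.8 CPM) of the 12.

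Genes of other marker lists also differed with embedding time, and their counts stand beside 3.27% of all genes past the test and lower and 5.97% higher in 1.0 mM gels, and 8.98% and 10.4% in 1.5 mM gels. The 8 naive pluripotency genes summed to 57.1 to 88.8 CPM at 72 h and 111 to 156 CPM at 96 h in 1.0 mM gels, and 5 of 8 were past the test and lower after early embedding in either gel, among them *Pou5f1* (log2 fold change -1.45 and -1.14) and *Dppa5a* (-2.71 and -2.48). *Tbx3* of that list was higher in 1.0 mM gels (1.49, adjusted p = 0.0187, from 10.8 ± 4.54 to 30.4 ± 14.1 CPM) and not past the test in 1.5 mM gels (-0.08). The 8 tail bud genes summed to 309 to 380 CPM at 72 h against 164 to 232 CPM at 96 h in 1.0 mM gels, and 269 to 308 CPM against 146 to 163 CPM in 1.5 mM gels, with *T* (brachyury), its most abundant gene, higher after early embedding (1.17 and 1.42). By counts that list went both ways, with 2 genes higher and 3 lower in 1.0 mM gels and 2 higher and 2 lower in 1.5 mM gels. Of the pharyngeal pouch list, the other site of *Pax1* and *Pax9*, the sums were 123 to 166 CPM at 72 h and 164 to 190 CPM at 96 h in 1.0 mM gels. In 1.5 mM gels they were 136 to 154 CPM at 72 h and 157 to 175 CPM at 96 h. The pouch list had 0 genes past the test and higher in either gel, with 1 lower of 5 in 1.0 mM and 2 lower of 4 in 1.5 mM gels. *Foxn1* and *Gcm2*, its thymus and parathyroid genes, were at most 0.0444 CPM in any library. *Tbx1*, *Eya1* and *Hoxa3* of the same list averaged 73.3, 67.7 and 14.1 CPM over the 12 libraries. *Tbx1* was not past the test (0.05 and 0.04). *Hoxa3* was lower in both gels (-1.64 in 1.0 mM gels). Of the kidney list 1 gene was higher and 1 lower of 4 in 1.0 mM gels, and 1 higher and 0 lower of 5 in 1.5 mM gels, with medians of -0.25 and -0.74. The gene that was higher was *Lhx1* (1.62 in 1.0 mM gels), which made up most of the list's sum (44.9 ± 4.57 CPM at 72 h and 14.7 ± 3.15 at 96 h in 1.0 mM gels), and the lower one was *Pax8* (-1.93, adjusted p = 0.0150), at 0.167 ± 0.0436 and 0.652 ± 0.0992 CPM. Neural genes went both ways (3 higher and 2 lower of 8 in 1.0 mM gels, 2 and 1 of 7 in 1.5 mM gels). Endothelial genes counted 1 higher and 2 lower of 8 in 1.0 mM gels and 0 higher and 3 lower in 1.5 mM gels, and endoderm genes counted 3 higher and 0 lower of 9, then 2 and 1. *Eya1* is on both the pharyngeal and the dermomyotome list, and *Foxa2* on both the endoderm list and the notochord and floor plate list. The tail bud list shares *Cyp26a1*, *Fgf8* and *Wnt3a* with the presomitic list and *Sox2* with the neural list. The part of these lists in the members' levels was not tested.

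The genes around the members in the somite programme were followed in 5 lists fixed with earlier results of these data known. Of 14 genes of somite formation and polarity, 13 were tested in each gel. In 1.0 mM gels 4 were past the test and lower after early embedding and 0 higher, and in 1.5 mM gels 2 were lower and 3 higher. Their medians were -0.18 and 0.07. Of all genes tested, 3.27% and 8.98% were past the test and lower in those gels, and 5.97% and 10.4% higher. *Tbx18*, the anterior counterpart of *Uncx*, was at 7.12, 6.78 and 13.4 CPM at 72 h and 27.4, 29.6 and 30.0 CPM at 96 h in 1.0 mM gels (fitted log2 difference -1.67, adjusted p = 0.00106; -1.12, adjusted p = 0.0232, in 1.5 mM gels). *Tbx22*, another T-box gene of the anterior sclerotome, changed by -3.34 (adjusted p = 1.24e-04) and -1.87 (adjusted p = 0.0101). *Ripply1*, which ends the segmentation programme in the new somite, fell in 1.0 mM gels (-1.45, adjusted p = 0.00147) and was not past the test in 1.5 mM gels (-0.78, adjusted p = 0.102). The Notch ligand gene *Dll3*, of the presomitic mesoderm, was higher in 1.5 mM gels (1.05, adjusted p = 0.00815; 0.61, adjusted p = 0.0623, in 1.0 mM gels). *Epha4*, a boundary receptor gene, did not pass the test in either gel (-0.17 and -0.13), nor did the cadherin gene *Cdh11* (-0.23 and 0.10). *Aldh1a2*, which makes retinoic acid, was lower in 1.0 mM gels (-0.45, adjusted p = 0.00362) and not past the test in 1.5 mM gels (0.05), and the boundary ligand gene *Efnb2* gave 0.01 and 0.43 (adjusted p = 0.982 and 0.0143).

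The dermomyotome and myotome list, the muscle and dermis side of the somite, moved with the members. Of 13 genes 8 were tested in 1.0 mM gels, of which 6 were past the test and lower after early embedding and 0 higher, and 5 of 9 were lower in 1.5 mM gels, against 3.27% and 8.98% of all genes, with medians of -1.31 and -0.70. *Lbx1*, which marks migrating limb muscle precursors, was at 0.89, 0.61 and 1.12 CPM at 72 h and 10.5, 8.79 and 5.88 CPM at 96 h in 1.0 mM gels (fitted log2 difference -3.25, adjusted p = 1.15e-04; -3.47, adjusted p = 6.80e-04, in 1.5 mM gels). *Pax3*, the general factor of muscle progenitors, was past the test in 1.0 mM gels (-1.43, adjusted p = 6.25e-04) and not in 1.5 mM gels (-0.55, adjusted p = 0.0645). *Dmrt2* behaved likewise (-2.40, adjusted p = 1.44e-04; -1.36, adjusted p = 0.0541), and *Sim1* and *Met* were lower in both gels. The muscle determination genes *Myf5*, *Myf6*, *Myod1* and *Myog* were too low to be tested.

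In the sclerotome and early skeletal list 13 of 15 genes were tested, and they went both ways, with 3 past the test and lower after early embedding in either gel, 2 higher in 1.0 mM and 3 higher in 1.5 mM gels, and medians of 0.10 and 0.28. Of all genes tested, 3.27% were past the test and lower and 5.97% higher in 1.0 mM gels, and 8.98% and 10.4% in 1.5 mM gels. The genes that were lower were *Scx*, of tendon precursors (-1.29, adjusted p = 0.00932; -0.98, adjusted p = 0.0250), *Twist2*, of mesenchyme (-0.97, adjusted p = 0.0390; -1.16, adjusted p = 0.0100), and the cartilage collagen gene *Col2a1* (-0.65, adjusted p = 0.00888; -0.67, adjusted p = 0.00499). Those that were higher in both gels came to 1, *Ptch1*, a receptor and target gene of hedgehog signalling (0.61, adjusted p = 0.0177; 0.91, adjusted p = 0.00145). *Bmp4* was higher in 1.0 mM gels (1.26, adjusted p = 0.0400) and not past the test in 1.5 mM gels (0.45, adjusted p = 0.208). The mesenchymal genes *Twist1* (-0.34 and -0.16) and *Pdgfra* (-0.32 and 0.08) were not past the test in either gel. *Nkx3-2*, a sclerotome gene downstream of *Pax1* and *Pax9*, was between 0.161 and 1.26 CPM in all 12 libraries, and with *Pax1* at 1.20 to 10.7 CPM the sclerotome part of the programme was read at low counts.

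Genes of the notochord and floor plate, the source of the sclerotome-inducing signal, ran the opposite way to *Pax1*. Of 7 genes 4 were past the test and higher after early embedding in 1.0 mM gels and 5 in 1.5 mM gels, against 5.97% and 10.4% of all genes, with none lower and medians of 0.67 and 0.66. *Shh* itself was at 53.5, 48.4 and 63.0 CPM at 72 h and 23.8, 22.3 and 18.2 CPM at 96 h in 1.0 mM gels (fitted log2 difference 1.37, adjusted p = 1.51e-04; 1.46, adjusted p = 0.00287, in 1.5 mM gels). *Nog*, a secreted BMP antagonist, was higher in 1.0 mM gels (1.51, adjusted p = 2.76e-04) and not past the test in 1.5 mM gels (0.77, adjusted p = 0.0659). *Foxa2* (0.61, at an adjusted p of 0.0499, and 0.66) and the BMP antagonist gene *Chrd* (0.63 and 0.63) were past the test in both gels, and *Noto* in 1.5 mM gels (1.20, adjusted p = 0.0181). The presomitic list had 10 of 12 genes tested, with 1 lower and 2 higher in 1.0 mM gels and 0 lower and 2 higher in 1.5 mM gels. Beside these counts stand 3.27% of all genes lower and 5.97% higher in 1.0 mM gels, and 8.98% and 10.4% in 1.5 mM gels. Its oscillating clock gene *Hes7* was lower in 1.0 mM gels (-1.78, adjusted p = 0.0132), on 0.50 to 3.30 CPM, while *Cyp26a1*, which degrades retinoic acid, was higher in both (0.85, adjusted p = 0.00206; 0.60, adjusted p = 0.0100). *Dkk1*, a secreted Wnt inhibitor, was higher in 1.0 mM gels (1.21, adjusted p = 6.23e-04; 0.33, adjusted p = 0.267, in 1.5 mM gels), and *Greb1* and *Nkd1* were past the test in neither. By edgeR none of the 5 lists had a gene past the test between gels at either embedding time, as was the case for all genes.

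**Figure D5:**
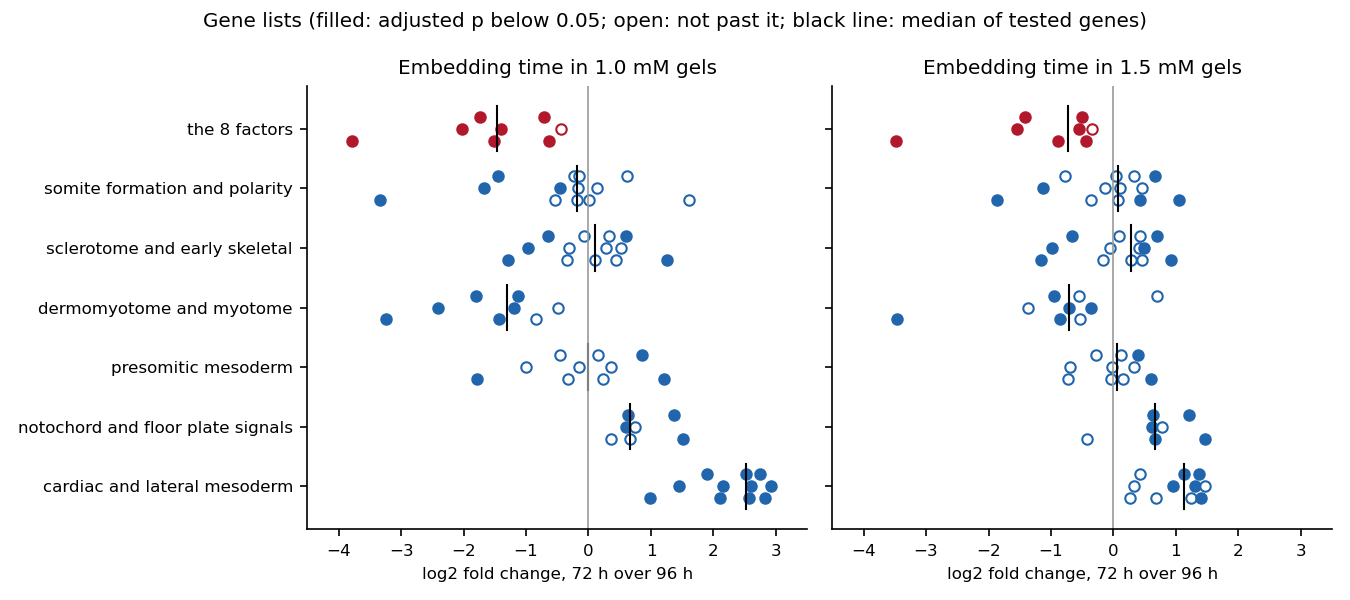
Fitted log2 fold changes, 72 h over 96 h (horizontal axes), of the 8 transcription factors (red) and of 6 gene lists (blue) in 1.0 mM gels (left) and 1.5 mM gels (right); points are genes, filled where past the test, and black lines are medians. Medians are -1.46 and -0.72 for the 8 factors, -1.31 and -0.70 for the dermomyotome and myotome list, and 0.67 and 0.66 for notochord and floor plate signals.

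Genes with the pattern most like each member were ranked by Pearson's r of log2 CPM over the 12 libraries among 16387 other genes, again as a description, since embedding time separates the libraries. *Meox1* was closest to *Cd36* (r = 0.99), *Hoxa2* (0.99) and *Plch1* (0.99), and *Meox2* to *Plch1* (0.99), *Scube3* (0.99) and *Hoxa3* (0.99). *Tcf15* was closest to *Nrtn* (0.98), *A930024E05Rik* (0.98) and the dermomyotome gene *Dmrt2* (0.97), and *Ctnna2* (0.98) and *Nrtn* (0.98) were among the 3 nearest to *Foxc1*. *Foxc2* was nearest to *Zic2* (0.96), *Depdc7* (0.96) and *Tfam* (0.95). *Uncx* had *Dixdc1* (0.96), *Foxd2os* (0.95) and *Twnk* (0.94) as its nearest genes. Correlations were lower for *Pax1*, with *Pde4b* (0.95), *Borcs7* (0.95) and *Elk3* (0.93), and for *Pax9*, with *Gm12504* (0.91), *Olfml1* (0.91) and *Eya1* (0.91), the first 2 of which averaged 1.23 and 0.238 CPM.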

How the data were processed

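Bulk RNA-seq of 12 libraries was analysed. Per the labels, poly-A RNA was prepared with a stranded kit, and the submitters' processing notes name cutadapt 4.4, STAR 2.7.10b, Cufflinks 2.2.1.3 and DESeq2. The authors aligned the reads to mm10 and deposited raw counts per gene, which they attribute to STAR, while the table is named for HTSeq. The authors computed the deposited FPKM values with Cufflinks. Deposited fold and p-value columns of the authors' own comparisons were not used.

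The 36 mitochondrial genes were left out. Counts were filtered with filterByExpr (minimum count 10, minimum total 15), scaled by TMM and tested with edgeR 4.0.16 (glmQLFit, glmQLFTest) in R 4.3.3, on 2 groups for pairwise comparisons and on all 12 libraries otherwise. The fit was tested on simulated data. CPM were computed on the TMM-scaled totals, and log2 CPM used a prior count of 2. Intervals are t intervals from the fitted standard error. Alternatives were DESeq2 1.42.0, limma 3.58.1 (voom, and log2 of FPKM with a pseudocount of 1, for genes of a mean of at least 0.1 FPKM), other normalizations and filters, a replicate block, mitochondrial genes kept and each library left out. The 8 members and all gene lists were chosen with earlier results of these data known. Named are all members, the 4 most abundant genes and every DE gene of each pathway list, the 3 most abundant of each marker list and the 3 most correlated genes of each member of at least 1 CPM. 1 gene under that rule is not reported here. Outside that rule, *Nkx3-2*, the muscle determination genes, *Foxn1* and *Gcm2* were named after their values were seen. Total counts of 23011791 to 27609422 per library leave the spread between replicates as the main limit for all but the lowest genes.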

Additional observations from a re-analysis of the deposited data

How the results depend on the processing

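Over 440 alternative estimates of a member's change with embedding time, 0 changed sign, 403 kept their side of the threshold, 35 lost the call and 2 gained it. The number of members past the test in 1.5 mM gels was 7, but 2 with limma on log2(FPKM + 1) and 4 to 7 with single libraries left out (4 without replicate 2 or 3 embedded at 96 h). It was 5 to 7 in 1.0 mM gels and 7 to 8 over both gels. DE members over both gels numbered 5, or 3 with FPKM. Between gels at 72 h, 0 members became 1 with DESeq2 (*Uncx*), 3 without the filter (*Uncx*, *Foxc2* and *Tcf15*) and 2 with the replicate block (*Uncx* and *Tcf15*). At 96 h 0 became 2 both without the filter and with the replicate block. Over both times 1 (*Uncx*) was past the test without the filter. The interaction gave 1 with DESeq2 (*Uncx*), 3 without the filter (*Meox1*, *Uncx* and *Tcf15*) and 1 without both replicates numbered 1 embedded at 72 h (*Uncx*). The share of all genes past the test under each alternative is not given here, and the causes of these changes were not tested.

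The main fits hold no replicate block, since pairing by replicate number was to be used only with r over 0.1 in every same-numbered pair. That was met in 8 of 12 pairs (r from 0.0439 to 0.302, all positive), and 22 of 24 checks found a library closest to its own number. Whether libraries of the same number share a culture or day was not tested. The absence of calls between gels depends on this choice: the block called *Uncx* and *Tcf15* at 72 h and *Tcf15* and *Meox1* at 96 h. Under the replicate block *Foxc2* in 1.5 mM gels was past the test (adjusted p = 0.00642), and the block changed no other call of embedding time.

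Signs turned only for estimates near 0 that were not past the test. At 72 h between gels, *Meox2* turned to 0.024 with voom and 0.0030 with FPKM, and *Pax1* to -0.013 with voom, -0.016 with upper quartile normalization, -0.0088 with the replicate block and -0.016 with FPKM. At 96 h *Pax1* turned to -0.047 with voom and -0.0078 with FPKM. Over both times *Pax1* turned to -0.037 with voom, -0.00066 with the replicate block, -0.012 with FPKM, -0.048 without both replicates numbered 1 embedded at 72 h and -0.0065 without those at 96 h. In those last 2 fits *Foxc1* turned to -0.016 (72 h) and *Meox1* to 0.048 (96 h). The interaction turned for *Pax1* to 0.036 with voom, 0.027 with the replicate block and 0.039 without both replicates numbered 1 embedded at 96 h, and for *Pax9* to 0.0032 with FPKM.

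With single libraries left out, the estimates between gels at 72 h ran from -0.37 to 0.49 for *Meox2*, -0.021 to 0.29 for *Foxc1*, -0.26 to 0.42 for *Pax1* and -0.31 to 0.083 for *Pax9*. At 96 h they ran from -0.095 to 0.013 for *Uncx*, -0.093 to 0.0016 for *Foxc1*, -0.10 to 0.12 for *Foxc2*, -0.38 to 0.51 for *Pax1* and -0.30 to 0.048 for *Pax9*. Over both times the ranges were -0.15 to 0.083 for *Meox1*, -0.0086 to 0.26 for *Tcf15*, -0.042 to 0.089 for *Foxc1* and -0.18 to 0.27 for *Pax1*. The interaction ran from -0.51 to 0.39 for *Pax1* and -0.20 to 0.18 for *Pax9*. The log2 ratio of *Foxc2* to *Foxc1* between embedding times ran from -0.052 to 0.057, and that of *Pax1* to *Pax9* between gels from -0.16 to 0.30. At 21 to 83 reads a library at 72 h, the changes of *Meox2* and *Pax1* carry the widest counting error.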
